A study of Mus musculus with 12 samples.

Results

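Genes for TBC-domain RabGAPs outside the Evi5 family were followed in single whole mouse embryos. They were taken by symbol as every Tbc1d gene with a number, together with Usp6nl, Sgsm1, Sgsm2, Sgsm3, Tbck and Grtp1, which gave 34 of the 23284 genes in the count table. The embryos were of a mixed C57BL/6 x 129Sv background, were collected at 9.0 days after fertilization, and were profiled by sequencing of polyadenylated RNA. A group of 4 embryos was wild type, and a group of 8, with CDKO in their titles, was described as null for Tgif1 and Tgif2 and as conditional double mutants. No source used here gives the Cre driver, the floxed alleles, litters or library batches. The 12 libraries held 16802367 to 21346245 counts.

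Rab GTPases are membrane-bound switches that give vesicles and organelles their identity and direct their fusion, and a Rab is active while it holds GTP. A TBC domain shortens that active state, because it adds an arginine and a glutamine to the Rab's active site and so speeds the hydrolysis of GTP. Some TBC proteins have lost these residues and act as tethers or scaffolds instead. In the early embryo, Rab traffic carries receptors, adhesion molecules and ciliary cargo.

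Tgif1 RNA was 60.9 ± 2.52 CPM (counts scaled to library size, so that embryos can be compared; SD, n = 4) in wild type. In the other group it was 6.2 ± 0.528 CPM (SD, n = 8), a log2 fold change of -3.29. Tgif2 was not lower, at 87.3 ± 1.17 and 97.9 ± 11.8 CPM, so only the labels speak for the Tgif2 genotype, and these 8 are named mutant-labelled in what follows. Gene counts cannot show a deleted exon when the rest is still transcribed. Markers of the parts of a whole embryo were present, with 9 of 9 neural, 13 of 13 heart muscle and 8 of 8 paraxial mesoderm genes above the count filter. Some of these moved with genotype. Of the heart muscle genes 10 were higher and 0 lower, with summed levels of 1705 to 2145 CPM in wild type and 2638 to 4607 CPM in the mutant-labelled embryos. Of the paraxial mesoderm genes 6 were lower and 0 higher, with sums of 147 to 255 and 117 to 181 CPM. Of the neural genes 1 was lower and 0 higher, with sums of 546 to 696 and 485 to 716 CPM. Of 13 yolk sac endoderm genes 0 were called by edgeR, with 0 at an unadjusted p of 0.05, 0 by DESeq2 and 1 by limma-voom, and sums of 753 to 2473 and 868 to 3770 CPM. Of 12 red cell genes tested 1 was lower and 0 higher by edgeR, 1 was called by DESeq2 and 6 by limma-voom, with a median log2 fold change of -0.86, sums of 851 to 1397 and 51.1 to 1750 CPM, and Hba-a1 and Hba-a2 listed at 0 in all embryos. The part of heart and paraxial tissue in the results that follow was not tested. In whole embryos fewer cells of a type and less RNA per cell cannot be told apart.

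The RabGAP genes changed in both directions, and rises were the more frequent. Of the 34 members 33 passed the count filter, and among these 17 rose and 7 fell at an adjusted p of 0.05, while 9 missed that threshold (edgeR's quasi-likelihood test, Benjamini-Hochberg over 14412 genes). The background was high. Of all genes tested 51.5% were called, 26.6% as higher and 24.9% as lower, against 72.7% of the members, 51.5% higher and 21.2% lower. At a mean level of at least 5 CPM 56.0% of all genes and 75.9% of 29 members were called. The members' median log2 fold change was 0.20 and that of all genes 0.01, or 0.12 and -0.01 with trends on GC content and length removed. The groups did not overlap in 19 members, 13 higher and 6 lower, or 57.6%, beside 34.7% of all genes. No test of the list against other genes was made, so these shares describe the members only.

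Most of the changes were small, as they were among all called genes. The median absolute log2 fold change was 0.37 for the called members and 0.41 for all called genes. Of the 24 called members 19 changed by less than 1.5-fold. The other 5, Tbc1d23, Tbc1d4, Tbc1d2, Tbc1d30 and Tbck, rose, or 15.2% of the members beside 11.9% of all genes that rose by at least that much. The steepest fall was that of Grtp1, which stood 1.33-fold lower. The summed level of the members was 1363 ± 27.4 CPM (SD, n = 4) in wild type and 1455 ± 32.5 CPM (SD, n = 8) in the mutant-labelled group. The sums did not overlap, at 1334 to 1393 and 1404 to 1485 CPM.

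**Figure D1:**
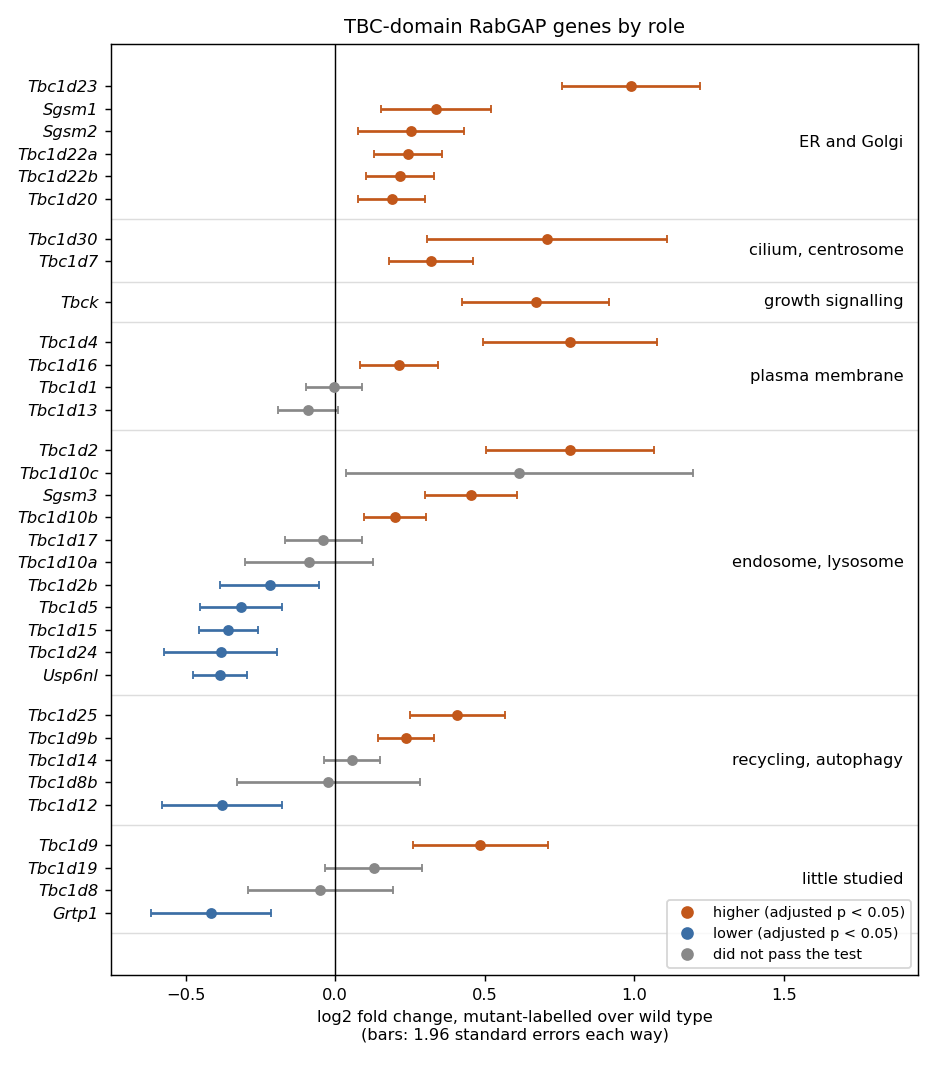
Log2 fold change of the 33 tested members, mutant-labelled over wild type, grouped by role, with bars for the approximate 95% interval (n = 4 and 8 embryos). The 6 genes placed with the endoplasmic reticulum and Golgi all lie to the right of 0. Of the 7 genes that fell 5 are placed with endosomes and lysosomes, the largest group with 11 of the 33. Of all genes tested 26.6% were higher and 24.9% lower, and no role group was tested against other genes.

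Levels differed widely between members when taken per length. Per kilobase of the longest transcript, Tbc1d13 (34.4 CPM per kb in wild type), Tbc1d16 (28.8), Tbc1d10b (22.4), Tbc1d14 (21.5), Tbc1d15 (19.2) and Tbc1d1 (18.7) stood highest. Tbc1d15 and Tbc1d1 differed by less than the SD between embryos of either gene, and Tbc1d10b and Tbc1d14 by less than that of Tbc1d10b. Tbc1d13 is a Rab35 GAP and Tbc1d16 a Rab4 GAP, and both act on cargo that recycles to the cell surface. The lowest of the tested members were Tbc1d30 (0.225 CPM per kb) and Tbc1d10c (0.213 CPM per kb). Tbc1d21 had 0 counts in the 4 wild-type libraries, which allows up to 0.0403 CPM over the group (3 counts; counting error only), and 1 count in 1 mutant-labelled library, so it was not tested.

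All 6 members placed with the endoplasmic reticulum and Golgi rose, beside 26.6% of all genes tested. No role group was tested against other genes. Tbc1d23 changed the most of all 33. It encodes a TBC protein without GAP activity that tethers endosome-derived vesicles to golgins at the trans-Golgi. Its level was 21.0, 21.2, 20.7 and 19.8 CPM in the 4 wild-type embryos, and the 8 mutant-labelled embryos ranged from 31.9 to 50.8 CPM with a median of 40.0. The groups were far apart, and the spread was much wider in the mutant-labelled embryos, with a coefficient of variation of 16.9% against 2.91%. The log2 fold change was 0.99 (SE 0.12, adjusted p = 8.76e-06), in 8 of 8 embryos. In the GENCODE M21 annotation 6.78% of its exon bases are shared with an antisense RNA on the other strand, and no source used here says whether the counting used strand.

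The other Golgi-related members moved less. Sgsm1, which binds Rab and Rap proteins, rose from 22.7 ± 0.874 to 28.7 ± 3.78 CPM (0.34 on the log2 scale, SE 0.09), with 7 of 8 mutant-labelled embryos above every wild-type embryo. Tbc1d22a and Tbc1d22b, a pair of Golgi proteins, rose by 0.24 (SE 0.06) and 0.22 (SE 0.06) on the log2 scale, each without overlap, and by 0.13 and 0.11 with GC and length trends removed (adjusted p = 0.0454 and 0.0469). Tbc1d20, a Rab1 GAP of the endoplasmic reticulum, rose from 41.0 ± 2.37 to 46.7 ± 2.64 CPM (0.19, SE 0.06). Sgsm2 rose from 19.3 ± 0.178 to 23.0 ± 2.85 CPM (0.25, SE 0.09). The calls of Sgsm2 and Tbc1d20 were the weakest of the 6: without wild-type embryo 1, 2, 3 or 4 the adjusted p of Sgsm2 was 0.0611, 0.0567, 0.0682 and 0.0615, and without wild-type embryo 1 that of Tbc1d20 was 0.0575. Both calls were also lost with trends on GC content and length removed (0.244 and 0.0632), and that of Sgsm2 with red cell markers as a covariate (0.115).

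Tbck, which encodes a pseudokinase with a TBC domain that supports growth signalling through mTOR, rose. It stood at 9.10, 11.3, 11.4 and 9.22 CPM in wild type and at 12.2 to 18.7 CPM, with a median of 17.3, in the mutant-labelled embryos. No mutant-labelled embryo fell within the wild-type range. The log2 fold change was 0.67 (SE 0.13, adjusted p = 0.000401). Within the mutant-labelled group its values ran in nearly the same order as those of Tbc1d23, a pattern picked after the values were seen. Embryos 6 and 2 were the lowest in both genes, at 12.2 and 13.0 CPM of Tbck and 31.9 and 33.2 CPM of Tbc1d23, and embryos 8 and 7 the highest, at 18.1 and 18.7 CPM and at 48.6 and 50.8 CPM.

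**Figure D2:**
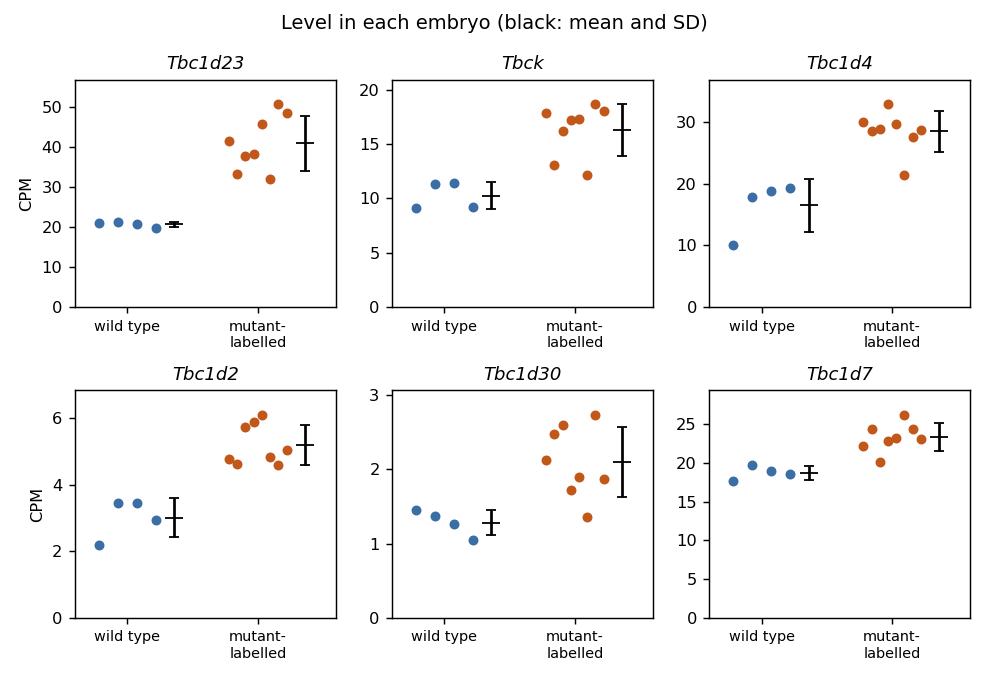
CPM of 6 members in each embryo on axes that start at 0, with 4 wild-type embryos in blue, 8 mutant-labelled embryos in orange and the group mean and SD in black. In all but Tbc1d30 every mutant-labelled embryo lies above every wild-type embryo, and wild-type embryo 1 is the low point of Tbc1d4 at 10.1 CPM.

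Both members placed with the cilium and centrosome rose, beside 26.6% of all genes tested. Tbc1d31 and Tbc1d32, also planned for this group, were not among the members found by symbol. Tbc1d30, a Rab8 GAP that restrains cilium formation in cultured cells, was scarce, at 1.45, 1.37, 1.27 and 1.05 CPM in wild type and at 1.35 to 2.74 CPM (median 2.01) in the mutant-labelled embryos. The groups touched, with mutant-labelled embryo 6 inside the wild-type range. The log2 fold change was 0.71 (SE 0.20, adjusted p = 0.00902). Tbc1d7 is a subunit of the TSC complex, the GAP that turns off Rheb and with it mTOR complex 1. It stood at 17.6, 19.7, 18.9 and 18.6 CPM in wild type and at 20.2 to 26.2 CPM (median 23.2) in the mutant-labelled embryos, without overlap. The log2 fold change was 0.32 (SE 0.07, adjusted p = 0.0017). Its partners gave no call. Of Tsc1, Tsc2 and Rheb 0 of 3 passed by edgeR, DESeq2 or limma-voom, 0 at an unadjusted p of 0.05, and their log2 fold changes were 0.04 (SE 0.07), -0.04 (SE 0.05) and 0.04 (SE 0.05).

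Among members that act on cargo bound for the cell surface, Tbc1d4 and Tbc1d16 rose, and Tbc1d1 and Tbc1d13 did not pass the test. Tbc1d4, also called AS160, is an Akt substrate that holds the glucose transporter GLUT4 inside unstimulated cells. It stood at 10.1, 17.8, 18.8 and 19.3 CPM in wild type and at 21.5 to 32.97 CPM (median 28.9) in the mutant-labelled embryos. Wild-type embryo 1 was the low one in its group, and mutant-labelled embryo 6 in the other. The log2 fold change was 0.79 (SE 0.15, adjusted p = 0.000515). Over the alternatives run it was smallest, at 0.61, without wild-type embryo 1, and was still called there. Tbc1d1, its close paralog, was at 121 ± 5.1 and 121 ± 6.47 CPM, a log2 fold change with an approximate 95% interval of -0.10 to 0.09. Tbc1d16 rose from 201 ± 11 to 233 ± 20.5 CPM (0.21, SE 0.07), with 6 of 8 embryos above the wild-type range. The call of Tbc1d16 did not hold when wild-type embryo 2 (adjusted p = 0.0525) or 3 (0.0555) was left out, with red cell markers as a covariate (0.0901) and with GC and length trends removed (0.0833). Tbc1d13 stood at 124 ± 4.72 and 116 ± 7.38 CPM (-0.09, SE 0.05, adjusted p = 0.143). It was called lower without mutant-labelled embryo 6 (adjusted p = 0.0432), with yolk sac endoderm markers as a covariate (0.0332), by limma-voom with sample weights (0.0161) and with GC and length trends removed (log2 fold change -0.21, adjusted p = 0.0022).

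Endosome and lysosome members split. There were 5 that fell, 3 that rose and 3 that missed the threshold, of 11 tested. Of all genes tested 24.9% fell and 26.6% rose. The falls included Usp6nl, the Rab5 GAP that slows uptake of the EGF receptor, which went from 73.6 to 78.6 CPM in wild type down to 54.1 to 62.0 CPM (log2 fold change -0.39, SE 0.05, adjusted p = 6.89e-06). Tbc1d15, a Rab7 GAP that also acts at mitochondria, fell from 71.9 ± 2.56 to 56.1 ± 3.05 CPM (-0.36, SE 0.05, adjusted p = 3.46e-05), and by 0.21 with GC and length trends removed, where it was still called. Tbc1d5, the Rab7 GAP that works with retromer, fell by 0.31 (SE 0.07) on the log2 scale, and Tbc1d24, a gene of synaptic vesicle traffic, by 0.38 (SE 0.10). For these 4 genes no mutant-labelled embryo reached the wild-type range. Tbc1d2b fell by 0.22 (SE 0.08), with 6 of 8 embryos below the wild-type range. Its call was the least stable of the 24: it was lost without wild-type embryo 2, 3 or 4 (adjusted p = 0.0755, 0.13 and 0.0576) and without mutant-labelled embryo 2, 3, 4 or 5 (0.0549, 0.0662, 0.0593 and 0.0635). It was also lost with red cell markers (log2 fold change -0.14, adjusted p = 0.203) or Xist (0.055) as a covariate and with no count filter (0.0521).

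The 3 endosome and lysosome members that rose were Tbc1d2, Sgsm3 and Tbc1d10b. Tbc1d2, or Armus, is a Rab7 GAP that links Rac1 to the breakdown of E-cadherin. It stood at 2.20, 3.44, 3.45 and 2.94 CPM in wild type and at 4.60 to 6.10 CPM (median 4.94) in the mutant-labelled embryos, without overlap (log2 fold change 0.78, SE 0.14, adjusted p = 0.000344). Sgsm3, which promotes lysosomal breakdown of connexin 43, rose from 26.2 ± 1.97 to 35.9 ± 3.43 CPM (0.46, SE 0.08). Tbc1d10b rose by 0.20 (SE 0.05), a call lost with GC and length trends removed (log2 fold change 0.06). Tbc1d10a (-0.09, SE 0.11) and Tbc1d17 (-0.04, SE 0.07) did not pass the test, and 35.2% of the exon bases of Tbc1d17 are shared with Il4i1 on the other strand. Tbc1d10a passed as lower without GC and length trends (-0.27, adjusted p = 0.0406). Tbc1d10c, known from lymphocytes, had 0.574 ± 0.184 and 0.879 ± 0.298 CPM and did not pass (adjusted p = 0.0941). In GENCODE M21 35.5% of its exon bases are shared with another transcript on the same strand, and limma-voom with sample weights called it higher (0.69, adjusted p = 0.0385). Of 11 white blood cell markers only 4 passed the count filter, and their list summed to 30.9 to 44.9 CPM in wild type and 55.5 to 73.5 CPM in the mutant-labelled embryos, with 1 called by edgeR, 1 by DESeq2 and 2 by limma-voom. Coro1a, the gene called by edgeR, went from 3.11 to 23.0 CPM, while Lcp1 was at 30.9 and 34.0 CPM and Laptm5 at 3.47 and 2.70 CPM, so most of the difference in the sum was Coro1a.

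Recycling endosome and autophagy members also went both ways. Tbc1d25, a Rab33b GAP of autophagosome maturation, rose from 11.9 ± 0.454 to 15.8 ± 1.3 CPM (0.41 on the log2 scale, SE 0.08), and Tbc1d9b, a Rab11 GAP, from 84.1 ± 4.47 to 99.1 ± 4.49 CPM (0.24, SE 0.05). Tbc1d12, which binds Rab11, fell from 9.86 ± 0.438 to 7.57 ± 0.918 CPM (-0.38, SE 0.10). None of these 3 overlapped between the groups. Tbc1d14, a Rab11 binder that restrains autophagy, stood at 99.96 ± 3.98 and 104 ± 5.41 CPM (0.06, SE 0.05), and Tbc1d8b at 4.65 ± 0.764 and 4.57 ± 0.812 CPM (-0.02, SE 0.16). Of the little studied members, Tbc1d9 rose from 11.4 ± 0.815 to 16.0 ± 2.41 CPM (0.49, SE 0.12) and Grtp1, a growth hormone regulated gene, fell from 11.1 ± 1.14 to 8.33 ± 0.91 CPM (-0.42, SE 0.10), both without overlap. Tbc1d8 (-0.05, SE 0.12) and Tbc1d19 (0.13, SE 0.08) did not pass. Tbc1d19 passed as higher with GC and length trends removed (0.21, adjusted p = 0.0168). The limit of strand stated for Tbc1d23 holds for others too. In GENCODE M21 13.9% of the exon bases of Tbc1d9 are shared with Gm10645 on the other strand. The shares are 8.02% for Tbc1d8 with Rpl31, 6.38% for Tbc1d16 with Gm26888 and 6.08% for Grtp1 with Lamp1. Some other members share smaller parts.

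**Figure D3:**
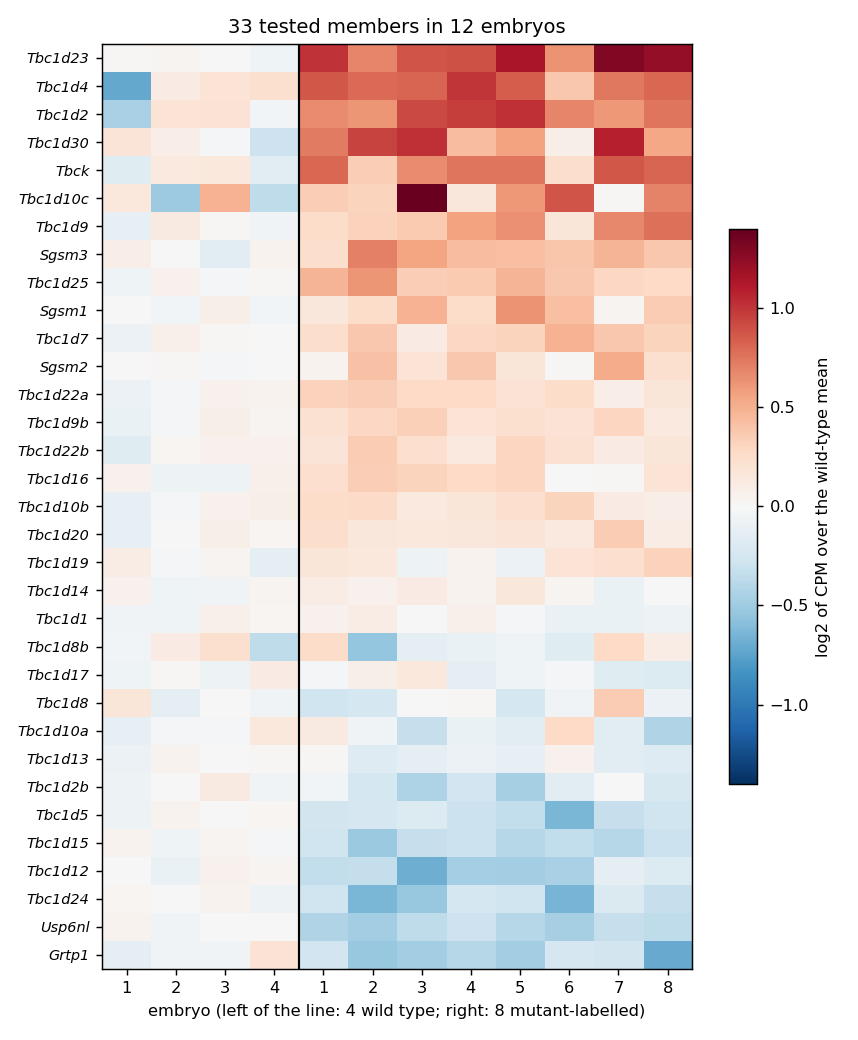
Log2 of CPM over the wild-type mean for 33 members (rows, ordered by fold change) in 4 wild-type and 8 mutant-labelled embryos (columns). Red is higher and blue lower; Tbc1d23 at the top is red in all 8 mutant-labelled embryos, Usp6nl and Grtp1 at the bottom are blue in all 8, and wild-type embryo 1 stands out in Tbc1d4 and Tbc1d2.

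The members that rose did so in every mutant-labelled embryo taken as a whole. The median log2 ratio of the 17 to the wild-type mean lay between 0.25 (embryo 6) and 0.42 (embryo 5), and that of the 7 that fell between -0.49 (embryo 2) and -0.26 (embryo 7). Wild-type embryos lay at -0.09 to 0.06 and at -0.05 to 0.03. These medians describe genes that were called on the same embryos. Mutant-labelled embryo 6 was the lowest of its group in 10 of 33 members, and embryo 7 the highest in 10. Wild-type embryo 1 was the lowest of its group in 16. Relative spread was wider among mutant-labelled embryos in 27 of 33 members, with a median coefficient of variation of 9.96% against 5.77%. This was not particular to the members. Over all genes tested edgeR's common estimate of the variation between embryos was 13.9% in the mutant-labelled group and 8.22% in wild type. The genes that rose had a median GC content of 55.4% and those that fell 47.8%. Once GC and length trends were removed, 14 members rose, 13 of them among the 17, and 9 fell, among them all 7, beside 3739 and 3821 of all genes.

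Close paralogs were compared directly, by the log2 ratio of their levels in each embryo. Of 9 pairs 5 changed their ratio (exact two-sided permutation test over 495 assignments of embryos, Benjamini-Hochberg over the 9 pairs; the smallest p possible is 0.00202). The ratio of Tbc1d1 to Tbc1d4 was 2.91 ± 0.412 (SD, n = 4) in wild type and 2.09 ± 0.143 (SD, n = 8) in the mutant-labelled embryos. The difference was -0.83 (SE 0.21, exact p = 0.00202, adjusted p = 0.00909), and -0.62 without wild-type embryo 1. Tbc1d2 over Tbc1d2b went from -3.53 ± 0.24 to -2.53 ± 0.314, a difference of 1.01 (SE 0.16, exact p = 0.00202, adjusted p = 0.00909), where the first gene rose and the second fell. Neither pair overlapped between the groups. Ratios of other gene pairs were not computed, so the 5 of 9 have no background beside them. They come from the same embryos as the calls above.

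Smaller shifts were found in other pairs. Tbc1d12 over Tbc1d14 shifted by -0.44 (SE 0.09), Tbc1d15 over Tbc1d17 by -0.32 (SE 0.08) and Tbc1d10a over Tbc1d10b by -0.30 (SE 0.06), each with an adjusted p of 0.0182 (exact permutation). Only 3 pairs passed without wild-type embryo 3, when Tbc1d12 over Tbc1d14 and Tbc1d15 over Tbc1d17 each had an adjusted p of 0.0545 by the exact test. The ratios were not tested with GC and length trends removed. In that fit the log2 fold changes of Tbc1d15 and Tbc1d17 lay closer together, at -0.21 and -0.11. Those of Tbc1d12 and Tbc1d14 were -0.33 and 0.06, and those of Tbc1d10a and Tbc1d10b -0.27 and 0.06. Ratios that did not pass were those of Tbc1d9 to Tbc1d9b (0.23, SE 0.10), Tbc1d22a to Tbc1d22b (0.03, SE 0.04), Sgsm1 to Sgsm2 (0.08, SE 0.12) and Tbc1d8 to Tbc1d8b (-0.03, SE 0.17). In Tbc1d22a and Tbc1d22b both genes rose.

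**Figure D4:**
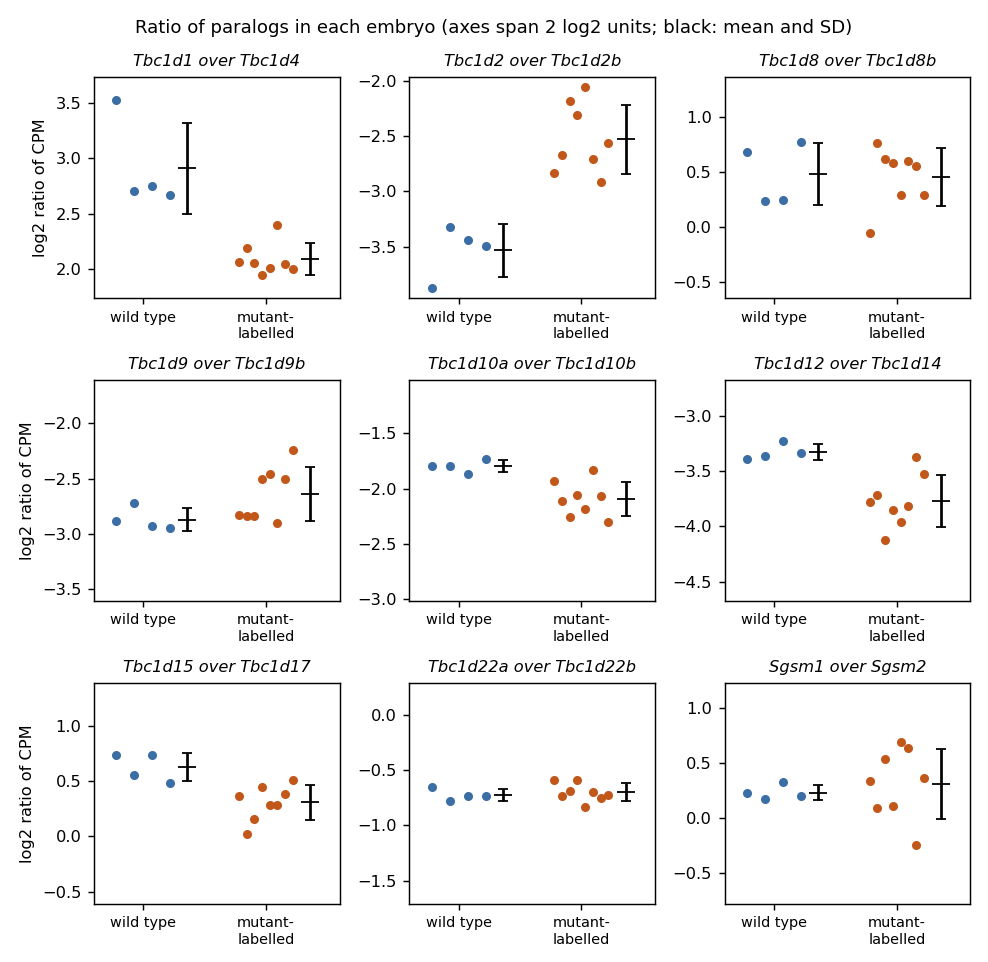
Log2 ratio of CPM of 9 paralog pairs in each embryo, wild type in blue (n = 4) and mutant-labelled in orange (n = 8), with the mean and SD in black; every vertical axis spans 2 log2 units. The groups are separate for Tbc1d1 over Tbc1d4 and for Tbc1d2 over Tbc1d2b, and lie on one another for Tbc1d22a over Tbc1d22b.

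Tgif proteins bind DNA with a TGTCA core, so the members' promoters were searched for it. RefSeq promoter windows (GRCm38.p6, 250 bases before to 50 after a start) were found for 29 members. The core TGTCA, on either strand, was in the windows of 12 of them (41.4%), beside 40.1% of 11301 tested genes with a window. It was in 7 of 15 that rose and in 2 of 7 that fell. A longer form that contains the core, CTGTCAA, was in 4 of 29 (13.8%) beside 3.88%, in Tbc1d2 and Tbc1d20, which rose, Tbc1d12, which fell, and Tbc1d14, which did not pass. By window, since some genes have several, it was in 5 of 38 (13.2%) beside 3.16% of 14440. A match describes the letters only. The stretches are shown because they are the matches to the longer form, read 5′ to 3′ on the gene's strand, with CTGTCAA or its reverse complement in capitals.
Tbc1d2, chr4:46650185-46650213, minus strand: cgctgagtttgCTGTCAAgtgtctaaggc
Tbc1d20, chr2:152293760-152293788, plus strand: tgagctttccgCTGTCAAactgcatgcgc
Tbc1d12, chr19:38836341-38836369, plus strand: gaaggtaaaaaCTGTCAAgacaggagcac
Tbc1d14, chr5:36582580-36582608, minus strand: gaaaagcccgtTTGACAGgtgacaggcta
Tbc1d14, chr5:36530626-36530654, minus strand: ggaggaggtccTTGACAGctcgcccagcc

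The match in Tbc1d2 began 3 bases before the start and ran past it, that in Tbc1d20 began 57 bases before, that in Tbc1d12 227 bases before, and those in the alternative promoters of Tbc1d14 began 200 and 20 bases before. The full 250 bases before the start are given for Tbc1d20 and Tbc1d12, which moved in opposite directions, with the same letters in capitals.
Tbc1d20, chr2:152293578-152293827, plus strand: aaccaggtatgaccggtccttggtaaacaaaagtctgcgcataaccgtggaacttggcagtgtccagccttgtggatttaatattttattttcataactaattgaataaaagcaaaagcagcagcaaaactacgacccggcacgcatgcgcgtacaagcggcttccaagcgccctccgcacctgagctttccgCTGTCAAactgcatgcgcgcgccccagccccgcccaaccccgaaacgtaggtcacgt
Tbc1d12, chr19:38836329-38836578, plus strand: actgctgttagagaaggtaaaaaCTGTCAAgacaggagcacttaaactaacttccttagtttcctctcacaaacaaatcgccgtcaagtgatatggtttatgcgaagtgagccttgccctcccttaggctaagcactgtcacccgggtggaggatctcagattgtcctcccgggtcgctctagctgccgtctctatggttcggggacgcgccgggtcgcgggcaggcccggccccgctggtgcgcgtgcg

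The Rab GTPases on which these proteins act were called at a rate near the background, but rises outnumbered falls, as among the members. Of 48 tested, 20 rose and 6 fell, or 54.2% called beside 51.5% of all genes, of which 26.6% rose and 24.9% fell. Their median log2 fold change was 0.15, and that of all genes 0.01. The lowest p-values belonged to Rab3d, of regulated secretion (1.74, SE 0.12), Rab23, which restrains hedgehog signalling at the cilium (-0.66, SE 0.05), Rab32 (1.80, SE 0.18) and the endosomal Rab14 (0.38, SE 0.05). Rab exchange factors, which load GTP and so work against the GAPs, were nearly balanced, with 10 higher and 9 lower of 33 tested and a median of 0.01. Mon1a, part of the Rab7 exchange factor, rose from 9.98 ± 0.96 to 17.1 ± 1.32 CPM, while Ccz1, another part of it, was called lower. Rin3, of the Rab5 exchange factors, rose from 18.5 ± 1.41 to 30.7 ± 4.44 CPM. Ankrd27 and Dennd1c fell by 0.39 (SE 0.05) and 1.74 (SE 0.24) on the log2 scale.

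Other regulators of Rabs included a GAP with no TBC domain. Its subunit genes both rose, Rab3gap2 from 66.4 ± 3.68 to 105 ± 6.01 CPM (0.66 on the log2 scale, SE 0.05, adjusted p = 1.38e-07) and Rab3gap1 by 0.22 (SE 0.06). Of 8 genes for prenylation, escort and membrane extraction of Rabs 2 rose and 3 fell, with the escort gene Chml at -0.85 (SE 0.12). Without wild-type embryo 1 only 1 fell, and with GC and length trends removed 4 rose. In the Evi5 family of TBC proteins Evi5l rose by 2.66 (SE 0.11) and Evi5 fell by 0.35 (SE 0.10), and Rabgap1 (-0.16, SE 0.07) and Rabgap1l (-0.15, SE 0.10) did not pass. The call of Evi5 was lost with red cell markers as a covariate, and 2 of the 4 were lower without mutant-labelled embryo 1 or 7 and with RLE scaling. The fold change of Evi5l was above those of all 33 members, and the difference between the families was not tested.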

How the data were processed

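RNA counts of 12 single embryos, 4 wild type and 8 mutant-labelled by genotype label, were used as the authors deposited them, as raw counts per gene symbol. FastQC, STAR, featureCounts and DESeq2 with build mm9 are named, per the submitters' processing notes. No source used here gives tool versions, the annotation or the strand setting. Totals were 16802367 to 21346245, and the number of counts of a gene sets its precision. The lowest chi-square per degree of freedom between libraries of a group was 3.89, so every pair differed by more than sampling noise. The p-values set the difference between groups against the spread between these embryos. Litters are not given, so embryos of a group may share a litter and may not be independent.

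Counts were fitted with edgeR 4.0.16 in R 4.3.3 (TMM, filterByExpr, robust quasi-likelihood F test, genotype only). SE is the log2 fold change over the square root of F. Genes are named by this rule: all members, with every wild-type value for those called with at least 1.5-fold and 1 CPM, plus Tbc1d7, Tbck and, where tested, Tbc1d32, and up to 4 genes of lowest p per pathway list. For 1 such gene no values are reported here. Ccz1 is named outside this rule, beside Mon1a. Paralog ratios used log2 CPM with a prior count of 2. The members and lists were chosen with earlier results of these data known. On simulated counts of 14412 genes 174 of 200 changed genes were recovered and 8 of 182 calls were unchanged genes. There each changed gene moved by at least 1.5-fold, and both groups were given the same spread. In the real data 51.5% of genes were called, most called members moved by less than 1.5-fold, and spread differed by group. The simulation therefore checks that the code works and does not measure recovery or error for the calls made here. Lengths, GC content, overlaps and copies came from GENCODE M21 (34 of 34 members matched, and no member had a near-identical copy of 200 bases at 95% identity). A planned search of protein motifs was not done. Alternatives were DESeq2 1.42.0, limma 3.58.1 with voom (with and without sample weights), scaling by RLE or the upper quartile, other filters and thresholds, embryos left out, covariates, and removal of GC and length trends.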

Additional observations from a re-analysis of the deposited data

Results flagged for a closer look

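In 6 of 84 groups of embryos (7.14%), taken over the 33 members and 9 paralog ratios, 1 embryo lay far from the rest of its group. The limit used flags about 5 in 100 groups by chance, and the groups share embryos. Wild-type embryo 1 was flagged for Tbc1d4 (10.1 CPM, the others 17.8 to 19.3), for Tbc1d22b (46.3 CPM, the others 53.1 to 54.3) and for the log2 ratio of Tbc1d1 to Tbc1d4 (3.53, the others 2.67 to 2.75). Mutant-labelled embryo 6 was flagged for Tbc1d4 (21.5 CPM, the others 27.6 to 32.97) and for Tbc1d5 (27.1 CPM, the others 33.04 to 37.0). Mutant-labelled embryo 7 was flagged for Tbc1d8 (8.32 CPM, the others 5.35 to 6.56).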

How the results depend on the processing

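Over 28 alternatives and 33 members, 854 fold changes kept their direction and their side of the threshold, 45 lost the call, 7 gained it and 17 changed sign. The same 17 rises and 7 falls were called with RLE or upper-quartile scaling, DESeq2 and limma-voom without weights. Against a fold change of 1.2, 7 members were higher and 2 lower, and 2079 and 1144 of all genes, since this test asks for more than a difference from 0. With 1 embryo left out, 15 to 17 members were higher and 6 to 8 lower, and 3369 to 3896 and 3107 to 3683 of all genes. Of the paralog pairs 3 to 5 passed with 1 embryo left out, and 2 with wild-type embryo 1 and mutant-labelled embryo 2 left out together, which leaves fewer assignments. The sign changes were all in genes that did not pass in either fit. The log2 fold change of Tbc1d1 was 0.00276 with upper-quartile scaling, 0.00356 with no count filter, 0.00509 with Xist as a covariate and -0.0233 to 0.0168 with 1 embryo left out. That of Tbc1d8 was -0.121 to 0.00866 with 1 embryo left out and 0.0397 without wild-type embryo 1 and mutant-labelled embryo 2, and that of Tbc1d17 was -0.0672 to 0.000332 with 1 embryo left out. That of Tbc1d8b was -0.126 to 0.0523 with 1 embryo left out, 0.0292 without wild-type embryo 1 and mutant-labelled embryo 2, 0.20 with red cell markers as a covariate and 0.11 with GC and length trends removed. The difference in the log2 ratio of Tbc1d8 to Tbc1d8b was -0.111 to 0.0669 with 1 embryo left out. Of the pathway list counts 320 stayed within 1.5 times and 16 moved further, in the Evi5 family and the escort, prenylation and extraction genes under several settings and in the other lists only against a fold change of 1.2. The cause was not tested for these. No paired analysis was possible because the labels give no replicate numbers that groups share. Tbc1d30 and Tbc1d10c, with the fewest counts, are limited most by depth.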
